A study of Mus musculus with 8 samples.

Results

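The 10 genes described here encode the core of Polycomb repressive complex 2 (Ezh1, Ezh2, Eed and Suz12), the DNA methyltransferases Dnmt1, Dnmt3a and Dnmt3b, and the DNA demethylation enzymes Tet1, Tet2 and Tet3. They were chosen by name from these gene families, and all 10 were found among the 55487 gene identifiers measured. RNA was sequenced from mouse beta cells isolated by flow cytometry out of dispersed islets, in 4 libraries labelled Control and 4 labelled Chd4KO. Mice of both groups had received tamoxifen, and the Chd4KO mice (called Chd4Db in the design text) are labelled as a knockout of Chd4, a helicase of the nucleosome remodelling and deacetylase complex. The Cre driver, the strain, the age and the sex of the mice, and any allele that the Control mice carried, are not given in the sources used here. Each library has an animal number of its own, and the replicates were taken as separate mice. These numbers are lower in every Control than in every Chd4KO library, so that anything that goes with them cannot be told apart from genotype.

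Polycomb repressive complex 2 places methyl groups on lysine 27 of histone H3, a mark of silent developmental genes. Ezh1 and Ezh2 are its alternative catalytic subunits, of which Ezh2 is typical of dividing cells and Ezh1 of resting ones, and both need Eed and Suz12 to act. Dnmt3a and Dnmt3b set new cytosine methylation at CG pairs, Dnmt1 copies it after DNA replication, and the Tet enzymes oxidise it. In beta cells, Ezh2 is known for holding the Cdkn2a locus silent in young animals, and the DNA methyltransferases for holding metabolic genes of immature cells silent.

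Depth was 14928094 to 41014294 reads per library, recovered from the TPM values. Chd4KO replicate 4 stood apart: insulin transcripts took 62.0% of its total against 32.4 to 46.98% in the other libraries, and 12702 genes reached 1 TPM (transcripts scaled to a fixed total per library) in it against 14788 to 15923. The differences of the 10 genes and the medians of their companion lists are given with and without that library. All 10 beta cell markers were tested (1 TPM or more in at least 4 libraries) and summed to 429420 to 468679 TPM in Control and 395967 to 652412 TPM in Chd4KO; 2 of them fell, the transcription factor Mafa (-1.95 ± 0.36, adjusted p = 0.0229) and the glucose transporter Slc2a2 (-1.37 ± 0.27, adjusted p = 0.0310), where 1.44% of all genes tested fell. Slc2a2 did not pass with median-of-ratios scaling (-1.07, adjusted p = 0.0531), which divides each library by its median ratio to the mean library. Differences are Chd4KO minus Control on the log2(TPM + 1) scale, which compresses differences at low TPM, with limma's standard error, and p-values were adjusted over all 15189 genes tested. Acinar markers summed to 39792 TPM in Chd4KO replicate 2, to 1576 TPM in Control replicate 2, and to 2.34 to 225 TPM in the others. The 10 leukocyte markers summed to 35.4 to 60.2 TPM in Control and 76.7 to 111 TPM in Chd4KO, and 2 of the 6 that were tested, Cd68 (1.22 ± 0.20, adjusted p = 0.0132) and Fcer1g (1.51 ± 0.33, adjusted p = 0.0482), rose, where 1.53% of all genes tested rose. Without Chd4KO replicate 4, Fcer1g did not pass (1.44, adjusted p = 0.0684). The pan-leukocyte marker Ptprc stood at 0.351 ± 0.390 and 0.0857 ± 0.0755 TPM (SD, n = 4 each). Of 5 tested ductal markers the chloride channel gene Cftr fell (-1.87 ± 0.35, adjusted p = 0.0238). Cftr stood at 1.998 to 8.13 TPM in Control and 0.0544 to 0.533 TPM in Chd4KO. It reached 1 TPM in 4 libraries, all of them Control, and so met the minimum only through the group in which it was high. Endothelial markers summed to 5.59 to 6.10 TPM in Control and 6.38 to 9.63 TPM in Chd4KO. The part of these cells in the values below was not tested, and in such bulk samples fewer cells of a type and less RNA per cell cannot be told apart.

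The targeted gene was checked first. Chd4 stood at 15.98, 13.4, 11.1 and 12.3 TPM in the Control libraries and at 8.38, 6.18, 5.27 and 2.59 TPM in the Chd4KO libraries, so that every Chd4KO library lay below every Control library. Its difference was -1.18 ± 0.29 (adjusted p = 0.0725), and -0.91 (adjusted p = 0.0376) without Chd4KO replicate 4.

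For orientation, the stretches just before the RefSeq starts of 4 genes follow, chosen because the values below turn on the pairs Ezh1 with Ezh2 and Tet1 with Tet3. Capitals mark CG pairs, the substrate of the Dnmt and Tet enzymes. Each stretch is 5′ to 3′ on the gene's strand in the GRCm38.p6 build, trimmed to bases that lie in no annotated exon. The Ezh2, Tet1 and Tet3 stretches lie inside the gene spans given below, which end at 47595341, 62908996 and 83459084. On the minus strand these 3 annotated genes thus begin further upstream than the stretches shown.
Ezh1, chr11:101226464-101226713, minus strand: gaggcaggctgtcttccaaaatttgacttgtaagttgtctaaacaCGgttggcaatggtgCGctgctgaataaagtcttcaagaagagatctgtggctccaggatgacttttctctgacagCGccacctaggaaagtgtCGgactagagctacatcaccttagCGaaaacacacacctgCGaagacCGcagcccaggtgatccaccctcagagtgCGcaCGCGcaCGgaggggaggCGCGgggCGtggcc
Ezh2, chr6:47595059-47595183, minus strand: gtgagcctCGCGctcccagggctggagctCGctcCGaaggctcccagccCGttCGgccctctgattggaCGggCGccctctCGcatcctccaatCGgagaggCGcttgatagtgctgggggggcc
Tet1, chr10:62887325-62887412, minus strand: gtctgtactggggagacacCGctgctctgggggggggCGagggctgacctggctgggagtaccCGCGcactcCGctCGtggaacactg
Tet3, chr6:83441679-83441754, minus strand: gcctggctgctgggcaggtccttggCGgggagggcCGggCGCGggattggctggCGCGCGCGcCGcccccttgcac
These libraries measured RNA, so they hold no methylation value for these pairs. RefSeq windows were found for all 10 genes, 14 windows in all, each of 300 bases from 250 before to 50 after a start. The Ezh1 window held 23 CG pairs, the Ezh2 window 31, the Tet1 window 17 and the Tet3 window 22, beside a median of 7 over all 32851 windows. The Tet2 window held the most of the 14, with 57.

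No gene of the 10 passed the test between Chd4KO and Control. Of the 9 that were tested, 0 had an adjusted p under 0.05, where 2.97% of all genes tested did, and 1, Ezh2, had an unadjusted p under 0.05, where 16.2% of all genes did. The adjusted p-values of the 9 ran from 0.296 to 0.998. Differences were negative for 7 of the 9 genes, where 74.8% of all genes tested had a negative difference. The median difference was -0.38 beside -0.25 over all genes, -0.17 beside -0.06 without Chd4KO replicate 4, and -0.10 beside -0.01 with median-of-ratios scaling. All 10 genes had their lowest value of the 8 libraries in Chd4KO replicate 4, as did 67.4% of all genes tested. The groups overlapped for each of the 9 tested genes, and 14.8% of all genes tested had groups without overlap. The 10th gene, Tet1, was under the limit of expression for the test and is described below.

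**Figure D1:**
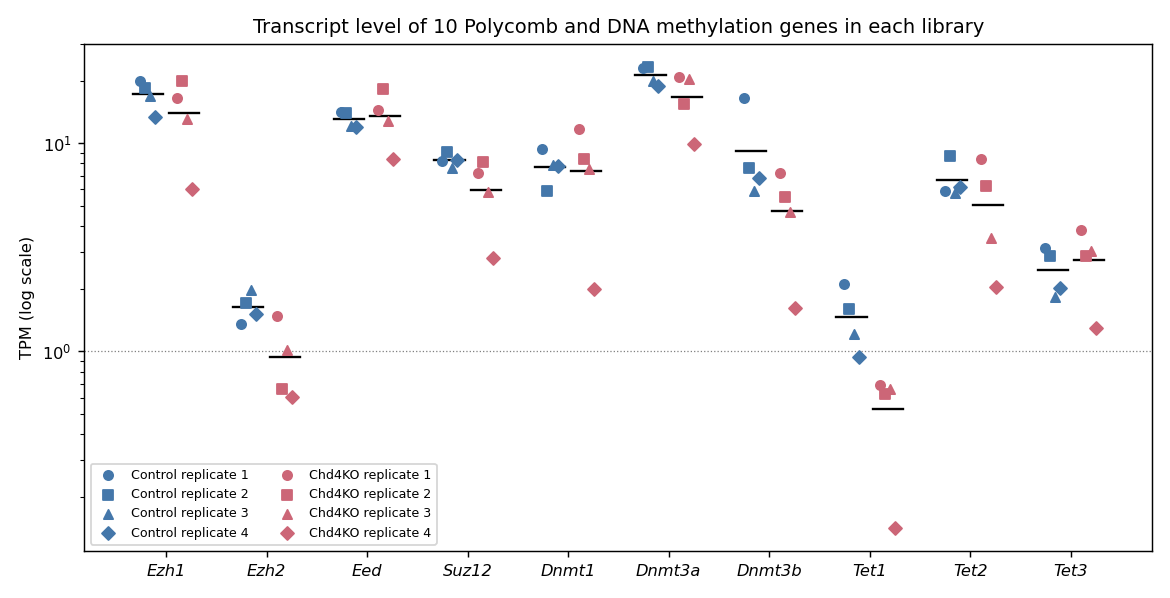
TPM of the 10 genes in each of the 8 libraries, on a log axis; points are libraries by group, each group's mean is drawn as a line, and the dotted line marks 1 TPM. Tet1 is the gene whose groups do not overlap (0.940 to 2.12 TPM in Control, 0.142 to 0.687 TPM in Chd4KO), and Chd4KO replicate 4 is the lowest library for all 10.

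In Control beta cells the 10 genes spanned levels from 1.47 to 21.3 TPM, a scale that is corrected for gene length. Dnmt3a was highest, above 71.0% of the genes tested, and was followed by Ezh1, Eed, Dnmt3b, Suz12, Dnmt1 and Tet2. Tet3, Ezh2 and Tet1 were lowest, with Tet1 above 8.58% of the genes tested. Of all neighbours in this order, Tet2 and Tet3 were the pair whose ranges did not overlap (5.76 to 8.70 and 1.82 to 3.15 TPM). Dnmt3a, Ezh1 and Eed also led in Chd4KO, and Tet3, Ezh2 and Tet1 were again the lowest. The place of Dnmt3b in the Control order rests on Control replicate 1, at 16.5 TPM against 5.93 to 7.61 TPM in the other Control libraries.

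Among the catalytic subunits of Polycomb repressive complex 2, Ezh1 was the abundant form. Ezh1 (ENSMUSG00000006920, chr11:101191115-101226463, minus strand, mm10) stood at 19.9, 18.4, 16.9 and 13.4 TPM in Control, and at 16.5, 19.96, 13.1 and 6.02 TPM in Chd4KO. The Chd4KO range took in the whole Control range, with replicate 4 far below the rest. The difference in Ezh1 was -0.38 ± 0.33 (95% interval -1.13 to 0.37, adjusted p = 0.553), and -0.06 without that library.

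Ezh2 (ENSMUSG00000029687, chr6:47530139-47595341, minus strand) stood at 1.35, 1.71, 1.98 and 1.52 TPM in Control, and at 1.49, 0.657, 1.02 and 0.607 TPM in Chd4KO. In Chd4KO, 3 libraries lay below all of Control, and replicate 1 lay within the Control range. The difference in Ezh2 was -0.46 ± 0.20 (95% interval -0.91 to -0.01, unadjusted p = 0.0453, adjusted p = 0.296), and -0.38 without Chd4KO replicate 4. It rests on 31 to 212 reads per library. Chd4KO replicate 2, with 31 reads, has an exact Poisson interval of 0.446 to 0.933 TPM, and intervals of this kind cover counting error only. The Ezh1 level was 8.56 to 30.4 times the Ezh2 level in the 8 libraries. Ezh1 made up 91.1 ± 1.88% of the summed Ezh1 and Ezh2 TPM in Control against 93.1 ± 2.63% in the other group (SD over 4 libraries), and the groups overlapped.

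Eed, which reads the methylated histone and activates the complex, had groups that overlapped widely. Eed (ENSMUSG00000030619, chr7:89954654-89980983, minus strand) stood at 14.2, 13.9, 12.1 and 11.9 TPM in Control, and at 14.5, 18.2, 12.7 and 8.38 TPM in Chd4KO. The Chd4KO libraries lay on both sides of the Control range. The difference in Eed was 0.00 ± 0.24 (95% interval -0.53 to 0.53, adjusted p = 0.998), and 0.19 without Chd4KO replicate 4.

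Suz12, the scaffold of the complex (ENSMUSG00000017548, chr11:79993106-80034123, plus strand), stood at 8.22, 9.07, 7.57 and 8.28 TPM in Control, and at 7.20, 8.10, 5.86 and 2.80 TPM in Chd4KO. In Chd4KO, 3 libraries lay below all of Control. The difference in Suz12 was -0.48 ± 0.28 (95% interval -1.10 to 0.14, adjusted p = 0.409), and -0.21 without Chd4KO replicate 4. Eed stood higher relative to Suz12 in every Chd4KO library than in any Control library. The ratio of Eed to Suz12 was 1.72, 1.53, 1.60 and 1.44 in Control and 2.02, 2.25, 2.18 and 2.99 in Chd4KO. A ratio within a library does not depend on how that library is scaled, and 13.1% of all genes tested had a ratio to Suz12 that was higher in Chd4KO without overlap. The Eed to Suz12 ratio is a description, was not among the ratios planned and carries no test. Planned were Eed and Suz12 relative to the sum of Ezh1 and Ezh2. For Eed that ratio was 0.639 to 0.798 in Control and 0.807 to 1.26 in Chd4KO, without overlap. The value of 1.26 is that of Chd4KO replicate 4, and the other Chd4KO libraries stood at 0.807, 0.884 and 0.899. For Suz12 the ratio to that sum was 0.387 to 0.554 and 0.393 to 0.422, with overlap. The share of all genes that separate in this way relative to that sum was not computed.

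Dnmt1, the maintenance methyltransferase (ENSMUSG00000004099, chr9:20907209-20959888, minus strand), stood at 9.40, 5.87, 7.82 and 7.74 TPM in Control, and at 11.7, 8.39, 7.55 and 2.003 TPM in Chd4KO. Its Chd4KO libraries held both the highest and the lowest value of the 8. The difference in Dnmt1 was -0.21 ± 0.41 (95% interval -1.14 to 0.71, adjusted p = 0.781), and 0.22 without Chd4KO replicate 4. It was 0.02 with median-of-ratios scaling, so that the data give no direction for Dnmt1.

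Of the methyltransferases that set new methylation, Dnmt3a (ENSMUSG00000020661, chr12:3806007-3914443, plus strand) was the more abundant in every library. It stood at 23.1, 23.2, 19.9 and 18.9 TPM in Control, and at 20.8, 15.5, 20.5 and 9.88 TPM in Chd4KO. The groups overlapped through Chd4KO replicates 1 and 3. The difference in Dnmt3a was -0.38 ± 0.25 (95% interval -0.94 to 0.18, adjusted p = 0.457), and -0.17 without Chd4KO replicate 4.

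Dnmt3b (ENSMUSG00000027478, chr2:153649450-153687730, plus strand) stood at 16.5, 7.61, 5.93 and 6.83 TPM in Control, and at 7.16, 5.52, 4.69 and 1.62 TPM in Chd4KO. Control replicate 1 was the highest, and Chd4KO replicate 1 was the only Chd4KO library within the Control range. The difference in Dnmt3b was -0.84 ± 0.41 (95% interval -1.76 to 0.08, adjusted p = 0.345). It was -0.50 without Chd4KO replicate 4 and -0.55 without Control replicate 1. Dnmt3b made up 23.1 ± 7.21% of the summed TPM of the 3 methyltransferases in Control and 15.8 ± 3.19% in Chd4KO, Dnmt3a 56.5% and 60.2%, and Dnmt1 20.4% and 23.96%, and for each gene the groups overlapped. Strand was not recorded, and the antisense gene Dnmt3bos, at up to 12.8 TPM, lies in the span of Dnmt3b but shares 0 annotated exon bases with it.

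Tet1 was the gene of the 10 that separated the groups. Tet1 (ENSMUSG00000047146, chr10:62804570-62908996, minus strand) stood at 2.12, 1.60, 1.22 and 0.940 TPM in Control, and at 0.687, 0.623, 0.663 and 0.142 TPM in Chd4KO. Every Chd4KO library lay below every Control library, and Chd4KO replicate 4 lay well below the other 3. Mean TPM was 1.47 ± 0.511 for Control and 0.529 ± 0.259 for Chd4KO (SD over 4 libraries), and the latter was 0.658 ± 0.0327 TPM without replicate 4. Of all genes with 1 TPM or more in at least 3 libraries, 11.1% were also lower in Chd4KO without overlap. Tet1 reached 1 TPM in 3 libraries, all of them Control, and so was not in the test over all genes. It meets a minimum of 3 libraries, as used for the 11.1%, only through the group in which it was high. With the minimum set at 3 libraries, an alternative chosen after its values were seen, the difference in Tet1 was -0.69 ± 0.22 with an adjusted p of 0.160. With voom on recovered reads it was -1.53 ± 0.44 (adjusted p = 0.0985), and the adjusted p was 0.101 to 0.165 in fits with no minimum. Tet1 thus did not pass in any fit that held it. Its values rest on 221 to 459 reads in Control and 26 to 77 in Chd4KO, and the exact Poisson intervals of Control replicate 4 (0.823 to 1.07 TPM) and Chd4KO replicate 1 (0.542 to 0.859 TPM), the nearest libraries across the groups, overlap.

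Tet2 (ENSMUSG00000040943, chr3:133463679-133545139, minus strand), the most abundant of the Tet genes, stood at 5.92, 8.70, 5.76 and 6.20 TPM in Control, and at 8.37, 6.21, 3.49 and 2.05 TPM in Chd4KO. The groups overlapped, with Chd4KO replicates 3 and 4 below all of Control. The difference in Tet2 was -0.46 ± 0.34 (95% interval -1.23 to 0.32, adjusted p = 0.503), and -0.17 without Chd4KO replicate 4.

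Tet3 (ENSMUSG00000034832, chr6:83362373-83459084, minus strand) stood at 3.15, 2.86, 1.82 and 2.03 TPM in Control, and at 3.85, 2.87, 3.04 and 1.29 TPM in Chd4KO. The highest and the lowest library were both Chd4KO. The difference in Tet3 was 0.09 ± 0.26 (95% interval -0.51 to 0.68, adjusted p = 0.869), and 0.31 without Chd4KO replicate 4.

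Within the Tet family, the share of Tet1 was lower and that of Tet3 higher in every Chd4KO library than in any Control library. Tet1 made up 18.9, 12.2, 13.8 and 10.3% of the summed Tet TPM in Control and 5.33, 6.42, 9.22 and 4.08% in Chd4KO. Tet3 made up 28.2, 21.8, 20.7 and 22.1% in Control and 29.8, 29.6, 42.2 and 37.2% in Chd4KO. The nearest Tet3 shares across the groups were thus 28.2% and 29.6%, and the TPM values of Tet3 overlapped. The mean share was 13.8 ± 3.72% against 6.26 ± 2.19% for Tet1 and 23.2 ± 3.39% against 34.7 ± 6.14% for Tet3 (SD, n = 4 each). The Tet2 share, 63.0% and 59.0%, overlapped. The ratio of Tet1 to Tet3 was 0.67, 0.56, 0.67 and 0.46 in Control and 0.18, 0.22, 0.22 and 0.11 in Chd4KO, and 16.5% of all genes tested had a ratio to Tet3 that was lower in Chd4KO without overlap. Tet1 itself is not among the genes tested. How often a gene's share of a family sum separates the groups was not computed, for a lower or a higher share. The difference in share was -7.54 percentage points for Tet1 and 11.5 for Tet3, and -6.81 and 10.7 without Chd4KO replicate 4. Shares add to a fixed total, so they are not independent of each other, and they carry no test. The ratio of Tet1 to Tet3 was not among the ratios planned and carries no test either.

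**Figure D2:**
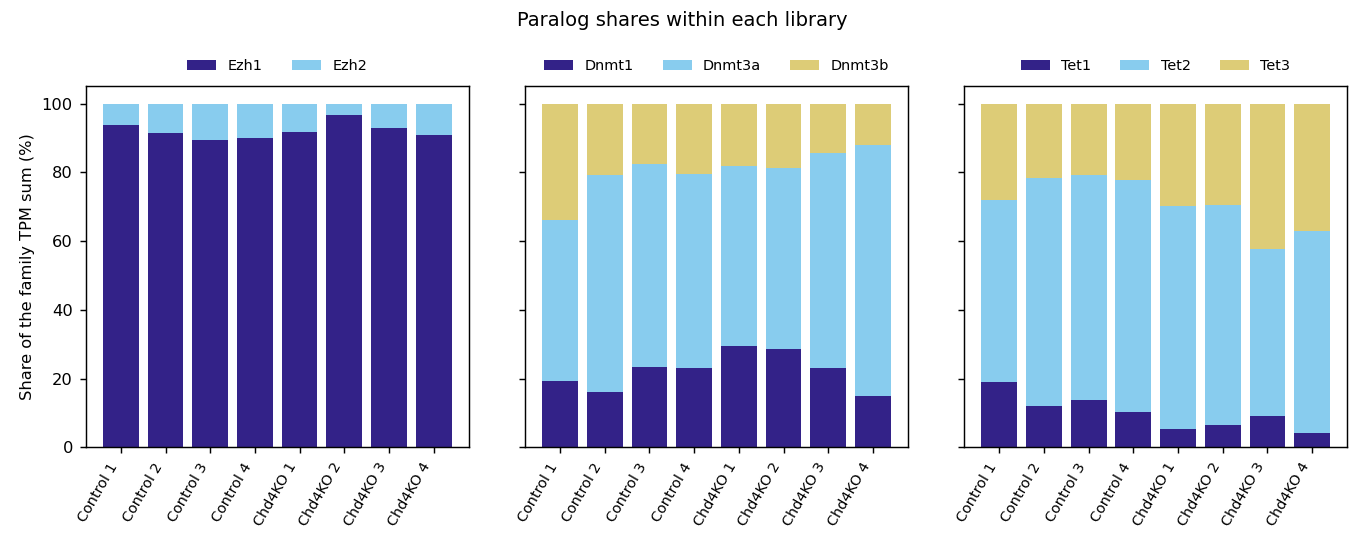
Share of each gene in the summed TPM of its family (percent, vertical axis), 1 stacked bar per library, for Ezh1 with Ezh2, the 3 methyltransferases and the 3 Tet genes. The Tet1 share is 10.3 to 18.9% in Control and 4.08 to 9.22% in Chd4KO, and the Ezh1 share is 89.5 to 96.8% over all 8.

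**Figure D3:**
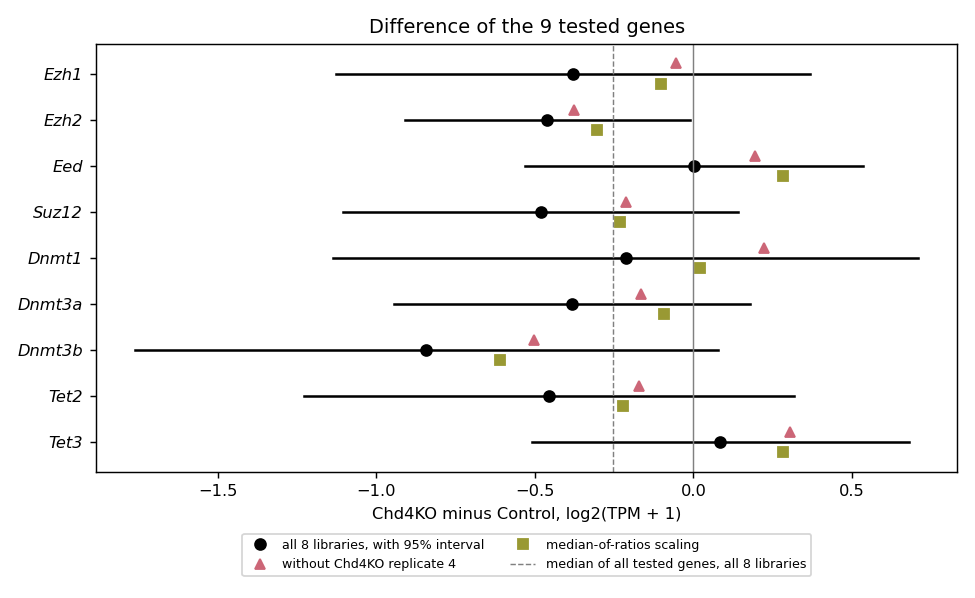
Difference of each gene between Chd4KO and Control on the log2(TPM + 1) scale (horizontal axis), with 95% intervals, with all 8 libraries, without Chd4KO replicate 4 and with median-of-ratios scaling. The dashed line marks the median of all genes tested, -0.25; the interval with all libraries crosses 0 for 8 of the 9 tested genes and ends at -0.01 for Ezh2.

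The 10 genes were also compared with each other over the 8 libraries, as a description in which points share scaling, depth and Chd4KO replicate 4. Pearson's r of log2(TPM + 1) ran from 0.117 for Ezh2 with Eed to 0.937 for Ezh1 with Suz12. Among 8394 genes with a mean of at least 5 TPM, the nearest patterns were Rif1 for Ezh1 (r = 0.994), Ret for Suz12 (r = 0.997), Dnajc21 for Dnmt1 (r = 0.995), Cacna1d for Eed (r = 0.991), Gsr for Dnmt3b (r = 0.991), Dagla for Dnmt3a (r = 0.986) and Pik3c2a for Tet2 (r = 0.982). Such patterns were common: 2347 genes had r over 0.9 with Suz12, 2134 with Ezh1, 1855 with Dnmt1 and 456 with Eed.

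The proteins that work with these enzymes were read from lists chosen for this purpose. None of the 8 tested accessory subunits of Polycomb repressive complex 2 passed the test, with a median difference of -0.36 beside -0.25 over all genes, and of -0.15 beside -0.06 without Chd4KO replicate 4. The histone-binding subunit Rbbp7, the most abundant, averaged 197 ± 34.1 TPM over Control and 157 ± 32.3 TPM over Chd4KO libraries (SD, n = 4, as in the pairs of values that follow). Phf1, which guides the complex to chromatin, stood at 43.7 ± 3.72 and 35.6 ± 12.2 TPM. Of the 21 tested subunits of Polycomb repressive complex 1, which marks histone H2A, 0 passed (median -0.27, and -0.036 without Chd4KO replicate 4), and its most abundant were Yaf2 at 47.2 ± 1.99 and 43.3 ± 2.96 TPM and Phc2 at 25.3 ± 3.02 and 33.2 ± 15.4 TPM. None of the 7 tested enzymes that remove Polycomb marks and their partners passed (median -0.40, and -0.0016 without Chd4KO replicate 4), with the deubiquitinases Bap1 at 56.5 ± 4.44 and 47.1 ± 20.6 TPM and Usp16 at 18.2 ± 1.49 and 18.8 ± 11.6 TPM.

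Of the 10 tested cofactors and readers of DNA methylation, 0 passed, with a median difference of -0.18, and of -0.0022 without Chd4KO replicate 4. The methyl-CpG binding protein Mbd2 stood at 96.4 ± 9.50 and 100.3 ± 21.7 TPM, and Mbd3, a subunit of the complex that holds Chd4, at 84.0 ± 6.49 and 85.7 ± 11.9 TPM. Of the 13 genes of demethylation and base excision repair, 0 passed (median -0.52 with all libraries, -0.24 without Chd4KO replicate 4). The stress-induced gene Gadd45g stood at 836 ± 248 and 503 ± 166 TPM. Idh2, a mitochondrial isocitrate dehydrogenase, stood at 218 ± 16.7 and 153 ± 31.7 TPM, with every Chd4KO library below every Control library, a difference of -0.52 ± 0.20 and an adjusted p of 0.235. Idh2 was the 1 gene of the 13 without overlap, where 14.8% of all genes tested had groups without overlap.

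Loci that these marks are known to hold silent were read as well. None of the 39 Hox genes, classic Polycomb targets, reached the limit for the test, and 35 were listed at 0 in all 8 libraries. The highest value of a Hox gene was 0.186 TPM, for Hoxb2. Of the beta cell loci known to be held by Ezh2 or the methyltransferases, Cdkn2a stood at 0.0483 and 0.0771 TPM and the hexokinase gene Hk1 at 0.254 and 0.394 TPM, both under the limit for the test. Ldha, a lactate dehydrogenase that beta cells hold low, stood at 1.59 ± 1.06 and 2.49 ± 1.81 TPM, with a difference of 0.40 ± 0.40. Values at this depth near 0 give no comparison between groups.

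Among 15 germline genes that promoter methylation is known to silence, 13 were under the limit, at up to 1.13 TPM, and 4 of them were at 0 in all libraries. Of the 2 tested, Tdrkh, which encodes a Tudor domain protein of the piRNA pathway, fell. Tdrkh (chr3:94413273-94434668, plus strand) stood at 9.70, 6.83, 7.25 and 6.91 TPM in Control, and at 1.62, 2.54, 2.21 and 1.498 TPM in Chd4KO, with no overlap. Its difference was -1.55 ± 0.20 (adjusted p = 0.00391), and -1.47 without Chd4KO replicate 4, and it passed in all 23 alternatives; 1.44% of all genes tested fell. Sycp3, a protein of meiotic chromosomes, stood at 2.77 ± 0.883 and 2.04 ± 0.652 TPM and did not pass. RNA of Tdrkh and Sycp3 was thus already present in the Control libraries, and which cells held it was not tested.

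Genes of proliferation were read because Ezh2 and Dnmt1 are known to be high in dividing cells. Of the 16 tested, 0 passed. Their median difference was -0.44 beside -0.25 over all genes, -0.22 beside -0.06 without Chd4KO replicate 4, and -0.16 beside -0.01 with median-of-ratios scaling. Their summed TPM was 130 to 180 in Control and 82.3 to 168 in Chd4KO. The replication clamp Pcna stood at 32.6 ± 4.65 and 23.3 ± 1.24 TPM and did not overlap between groups (adjusted p = 0.236). Of the 16 genes, 1 was lower (Pcna) and 1 higher (Ccne1, described at the end) in Chd4KO without overlap. Over all genes tested, 14.8% had groups without overlap. The cell cycle factor E2f1 stood at 27.9 ± 4.37 and 34.9 ± 16.5 TPM.

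**Figure D4:**
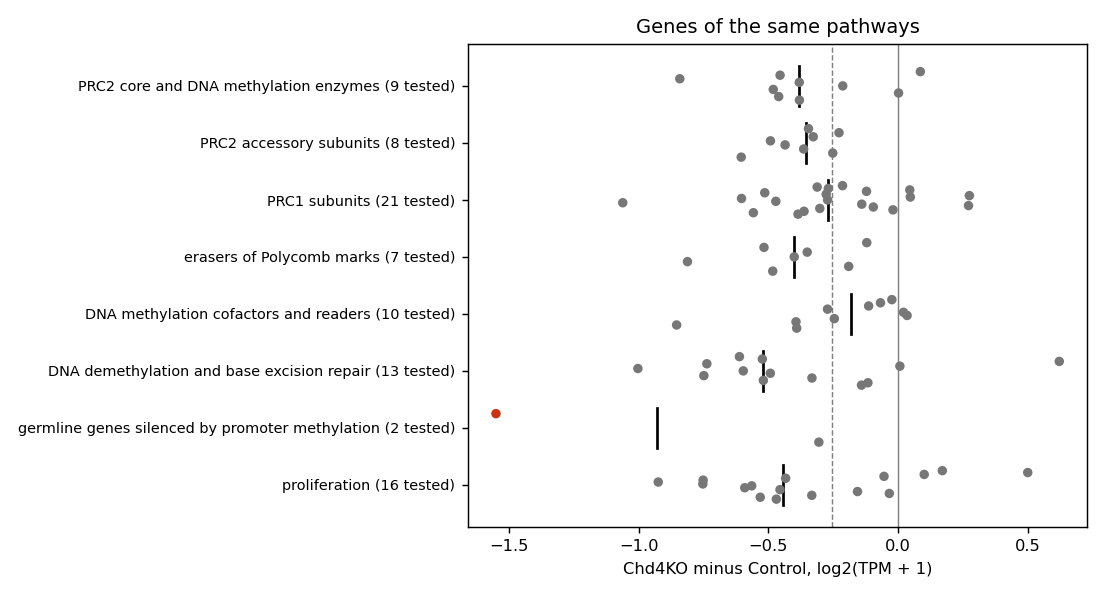
Difference between Chd4KO and Control on the log2(TPM + 1) scale (horizontal axis) for each tested gene of the lists named above; points are genes, red points passed the test, short black lines are list medians and the dashed line is the median of all genes tested, -0.25. The red point is Tdrkh at -1.55.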

How the data were processed

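RNA of flow-sorted beta cells was measured in 4 Control and 4 Chd4KO libraries. The authors deposited 1 table of TPM per library for 55487 Ensembl identifiers. The submitters' processing notes name HISAT2, HTSeq, DESeq2, Trimmomatic and FastQC and the build mm10, without versions or roles. The release of the annotation was not given. Per the labels' protocols, RNA was made into cDNA with a SMART-Seq low-input kit and into Nextera XT libraries, which do not mark strand. A replicate is 1 titled animal, and p-values measure the spread between these libraries.

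Symbols, positions and exon lengths came from GENCODE M21, in which 55227 identifiers (99.5%) were found, and promoter sequences from RefSeq's GRCm38.p6 table. Proteins were not used here. TPM times exon length gave whole reads for 98.5 to 98.7% of values (tolerance 0.05 of a read). These reads served for depth and for a voom alternative.

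Values of log2(TPM + 1) from all 8 libraries were fitted by genotype alone with limma 3.58.1 (R 4.3.3). Genes with at least 1 TPM in at least 4 libraries were tested, p-values were two-sided and adjusted by the Benjamini-Hochberg method over the 15189 genes tested, and genes with an adjusted p under 0.05 were said to pass. Shares and ratios within a library were described by their values, with no test. The script was tested on simulated data, with 3 runs of 200 changed genes for each size of change. The changed genes had a mean of at least 5 TPM, and noise was drawn for each gene separately. The script recovered 0% of 1.5-fold, 0.17% of 2-fold and 69.5% of 4-fold changes, with 0, 0 and 17 false calls. A gene that did not pass is thus not shown to be unchanged. These rates do not cover genes of lower mean, such as Tet1, Ezh2 and Tet3, or a shift that many genes of a library share. Alternatives were another pseudocount, other minimum levels, other scalings, array weights, voom, a replicate block and leaving out libraries. The members, lists and rules were chosen with earlier results of these data known. Genes named beside the 10 and Chd4 are, from each list, up to 4 that passed with the lowest adjusted p and, where at most 1 passed, the 2 with the highest mean TPM, and, for genes of like pattern, those with the highest Pearson's r. Some listed genes are not reported here. Python 3.11.15 with pandas 2.3.3, numpy 2.4.6, scipy 1.17.1 and matplotlib 3.10.9 was used for the remaining steps. Same-numbered Control and Chd4KO libraries were taken as not paired.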

Additional observations from a re-analysis of the deposited data

Results flagged for a closer look

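In groups of 4 libraries, 1 library lay far from the other 3 in 4 of 36 groups examined, and chance gives this in about 1 of 20 groups. Dnmt3b was 16.5 TPM in Control replicate 1 against 5.93 to 7.61 TPM in the other Control libraries. Tet1 was 0.142 TPM in Chd4KO replicate 4 against 0.623 to 0.687 TPM in the other Chd4KO libraries. Tet2 was 8.70 TPM in Control replicate 2 against 5.76 to 6.20 TPM in the other Control libraries. The Tet2 share of the summed Tet TPM was 52.9% in Control replicate 1 against 65.4 to 67.6% in the other Control libraries.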

How the results depend on the processing

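None of the 170 results of the 10 genes under 19 other settings of the test had an adjusted p under 0.05. The lowest was 0.109. Tet1 was among these results only in the fit with no minimum. The number of all genes that passed was 451. It was 220 with a minimum of 5 TPM, 700 with median-of-ratios scaling (445 higher and 255 lower in Chd4KO), 755 with quantile normalization, 1364 with array weights, and 135 (without Chd4KO replicate 3) to 630 (without Chd4KO replicate 4) with 1 library left out, every other library giving 144 to 246. It was 497 with no minimum. In combinations chosen after seeing the data, no minimum gave 716 together with median-of-ratios scaling and 773 together with leaving out Chd4KO replicate 4. Of the listed companion genes 1 passed, Tdrkh; 2 passed with median-of-ratios scaling (with Idh1), 5 with array weights, 2 without Chd4KO replicates 2 and 4, 2 with no minimum and without Chd4KO replicate 4, and 1 to 2 with 1 library left out.

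Same-numbered libraries correlated by -0.02, 0.43, 0.08 and 0.04 in their deviations from the group means, so the numbers were not taken to pair the mice, and not every library correlated best with its own number. With a replicate block 274 genes passed, and 0 of the 9.

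Some differences changed sign, none of them past the threshold, and the cause was not tested. With 1 library left out, Eed ran from -0.15 to 0.19, Dnmt1 from -0.47 to 0.22, Tet3 from -0.054 to 0.31, Bap1 from -0.59 to 0.0077, Usp16 from -0.47 to 0.14, Mbd2 from -0.059 to 0.19, Mbd3 from -0.052 to 0.077 and E2f1 from -0.044 to 0.55. Eed was -0.0020 with a pseudocount of 0.1. Dnmt1 was 0.021 with median-of-ratios scaling (with and without a minimum TPM), 0.057 with quantile normalization, 0.094 with array weights and 0.27 without Chd4KO replicates 2 and 4. Yaf2 was 0.18 with median-of-ratios scaling, 0.032 without hormone and mitochondrial genes and 0.033 with quantile normalization. Usp16 was 0.16, 0.021 and 0.13 under the same 3 scalings, and 0.32 without Chd4KO replicates 2 and 4. Depth limits Tet1 and Ezh2 most, with 26 and 31 reads in their lowest library.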

Other observations

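Genes of the companion lists that passed under some alternatives were singled out after their values were seen. Uhrf2, a reader of hemimethylated DNA, stood at 27.4 ± 0.724 TPM over Control and 15.8 ± 5.999 TPM over Chd4KO libraries (SD, n = 4, likewise below), with no overlap, and had an adjusted p of 0.217 with all libraries and 0.0463 without Chd4KO replicate 4. Idh1, the cytosolic isocitrate dehydrogenase, stood at 37.0 ± 3.24 and 60.9 ± 23.8 TPM with overlapping groups, an adjusted p of 0.322, and 0.0380 with median-of-ratios scaling. Idh1 and Idh2 thus lay on opposite sides of 0, at 0.62 and -0.52, and the difference between them was not tested. The cyclin gene Ccne1 stood at 6.40 ± 1.22 and 9.39 ± 1.18 TPM without overlap (adjusted p = 0.249). Beside Uhrf2 and Ccne1, 14.8% of all genes tested had groups without overlap.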
